A study of Bos taurus with 8 samples.

Results

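The genes described here encode the mitochondrial carriers, the outer membrane channels and the protein import machinery of granulosa cells, the somatic cells that line the ovarian follicle. They were chosen by the gene symbol given in the annotation of the array: every symbol beginning with SLC25A, TOMM or TIMM followed by a digit, and VDAC1, VDAC2 and VDAC3. This gave 60 genes of 15216 with a symbol, and each was read by its brightest probe. A mean log2 intensity of 7 was required, just above the negative control spots, which averaged 6.66 to 6.80. It was reached by 59 of the 60 genes, out of 13065 genes in all. The gene that missed it was SLC25A46, a carrier-like protein of the outer membrane (6.76), while SLC25A2 (7.09), TOMM20L (7.23) and SLC25A42 (7.30) lay just above. A further 4 genes carried an outdated symbol on the platform and entered only through their current name. They were VDAC3, TIMM10B, TIMM21 and SLC25A51, and they are described apart and left out of the counts.

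Atretic dominant follicles, which are regressing, were compared with plateau phase dominant follicles, whose growth has slowed. Both groups came from ovaries of Holstein cattle collected at slaughter and measured more than 9 mm in diameter, and the age of the animals was not given in the sources used here. The granulosa cells had been scraped from the follicle wall, and the phase of a follicle was assigned from the DNA content of its cells in flow cytometry. The RNA was amplified, and an atretic follicle was hybridised together with a plateau follicle on each of 8 two-colour arrays. On 4 arrays the atretic follicle was labelled with Cy5 and on the other 4 with Cy3, giving 4 pairs of follicles measured with both dyes. Values below are normalised log2 intensities of a follicle, or log2 ratios of atretic over plateau as mean ± SD over the 4 pairs. A gene was called upregulated or downregulated in atretic follicles where it passed a fold of 1.5 at an unadjusted p-value of 0.05 in limma, the threshold named by the study.

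Mitochondria burn pyruvate and fatty acids and, in steroid-producing cells, also begin the synthesis of steroid hormones from cholesterol. The VDAC channels let small molecules cross the outer membrane, whereas each member of the SLC25 family moves a particular set of substrates, such as ADP and ATP, phosphate or amino acids, across the inner membrane. Nearly all mitochondrial proteins are made in the cytosol. They enter through the TOM complex of the outer membrane and are passed on by the TIM23 complex, when they carry a presequence, or by the small TIM chaperones and the TIM22 complex, when they are carriers themselves.

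Median spot intensities were 163 to 285 in Cy5 and 206 to 376 in Cy3, over local backgrounds of 39 to 71 and 21 to 31. The labels do not tie follicles to separate cows, so p-values cannot be taken to measure the spread between cows. They rest on the spread of the log2 ratios between the 4 pairs, not on that between single follicles. The plateau follicle of pair 3 stood apart. Averaged over all 10 granulosa cell markers of a list, such as the oestrogen synthase CYP19A1, the log2 intensity was 11.01 to 12.17 in the 4 atretic follicles, against 9.19 in the plateau follicle of pair 3 and 10.13 to 12.46 in the other plateau follicles. Averaged over all 8 markers of fibroblasts and stroma, such as the collagen gene COL1A2, it was 8.52 to 9.13 in the atretic follicles, against 13.07 in that plateau follicle and 7.93 to 9.23 in the others. For 7 of 8 macrophage and leukocyte markers it was 7.54 to 8.49 in the atretic follicles, against 9.51 in that plateau follicle and 7.26 to 9.11 in the others. Pair 1 differed in the markers of theca cells, the steroid-producing layer around the granulosa. Averaged over all 5 of them, the atretic follicle of pair 1 had 11.97 and the other atretic follicles 8.10 to 10.45, against 9.87 in the plateau follicle of pair 1 and 8.35 to 11.37 in the other plateau follicles. The log2 ratio of CYP17A1, the androgen-forming enzyme of theca cells, was 1.77 in pair 1 and -0.88 to -0.05 in the other pairs. INSL3, also on this list, did not set pair 1 apart, with 0.43, 0.42, 0.22 and -0.17 in pairs 1 to 4. STAR, LHCGR and HSD3B1 of that list are also known from granulosa cells of large follicles. Over the 8 stromal markers the median log2 ratio in pair 1 was 0.51, and they ran from -0.22 for POSTN to 4.14 for DCN. The part of these differences in the ratios of pairs 1 and 3 was not tested, and several results that turn on either pair are also given without it. In RNA from whole scrapings, fewer cells of a type and less RNA per cell cannot be told apart.

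Among the 59 genes tested, 2 were upregulated in atretic follicles, SLC25A6 and SLC25A14, and 0 were downregulated. Over all genes tested, 2.79% were upregulated and 2.88% downregulated at the same threshold, so the share among the carriers and import genes was near that of the array as a whole. The log2 ratios of the 59 genes ran from -0.58 to 0.70 and their median was 0.03, against 0.00 over all genes. In pairs 1 to 4 the median was -0.02, 0.06, -0.09 and 0.07. The ratio was above 0 for 32 genes and below 0 for 27. It was above 0 in all 4 pairs for 7 genes, against 8.5% of all genes, and below 0 in all 4 pairs for 5 genes, against 8.34% of all genes. The levels of the 4 atretic follicles all lay above those of the 4 plateau follicles for 1 gene, SLC25A38, where 1.55% of all genes did so. They lay below for 0 genes, where 1.22% of all genes did so. At an unadjusted p-value of 0.05 alone, whatever the fold, 5 of the 59 genes were higher in atretic follicles, against 5.26% of all genes, and 1 was lower, against 4.31% of all genes. Of the 34016 probes of the array that were tested, 0 passed an adjusted p-value of 0.05 in limma, where 2548 had an unadjusted p-value under 0.05. With all 8 arrays fitted together and the pair as a block, 556 passed that adjusted p-value. This fit took a correlation of 0.44 within pairs, so both arrays of a pair, which hold the same RNA, counted partly as separate samples. Without pair 3, 0 of the 59 genes were upregulated and 0 downregulated, and the median was 0.03. Without pair 1, 3 were upregulated and 2 downregulated, and the median was 0.04.

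**Figure D1:**
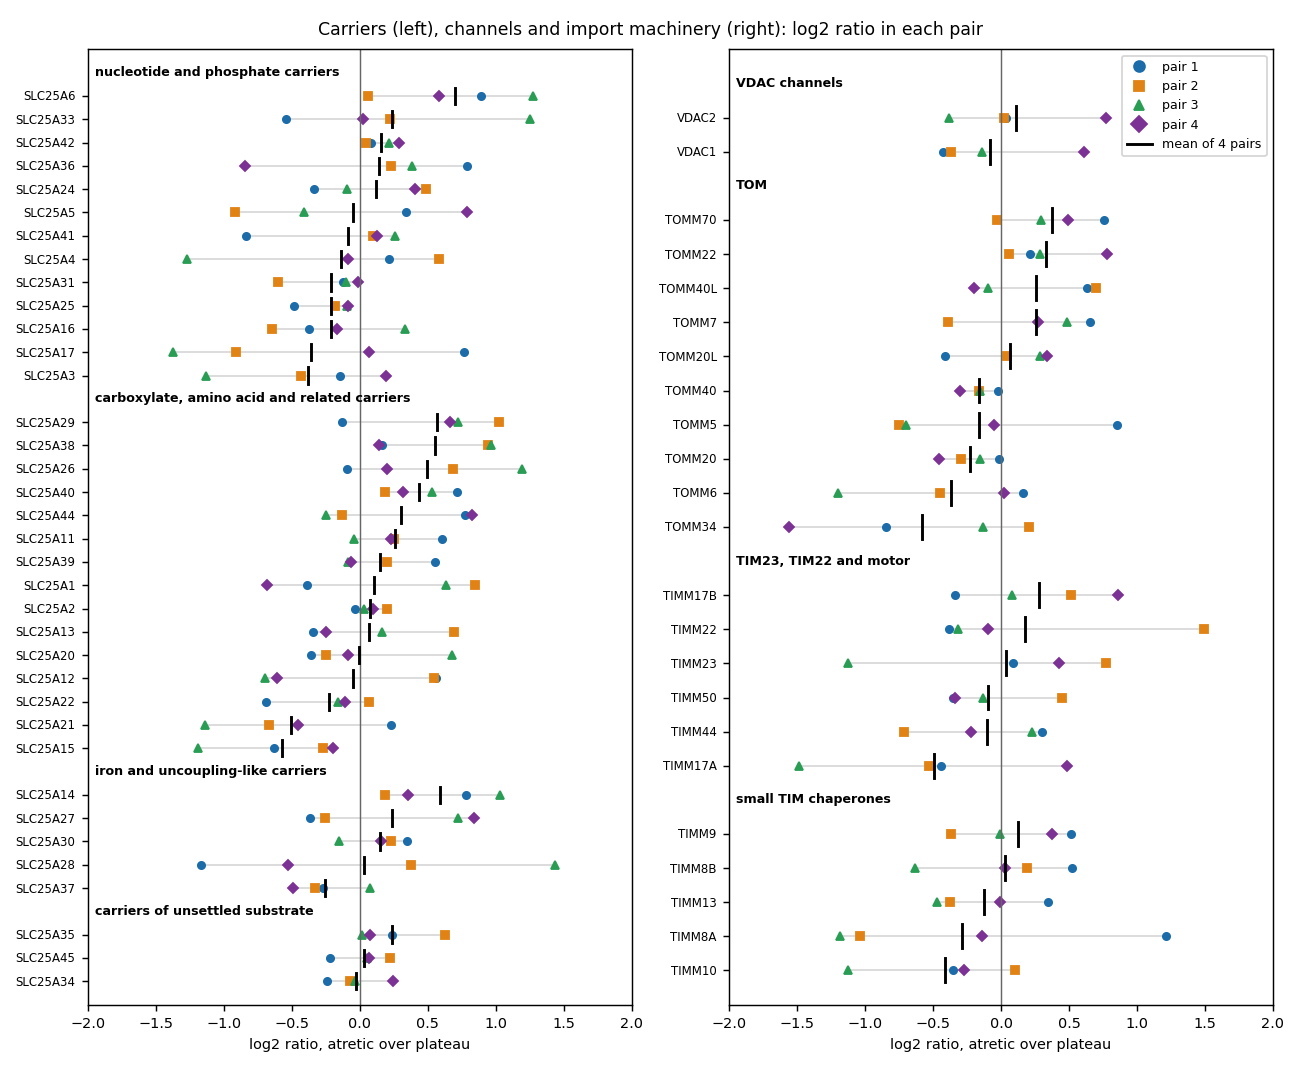
Each row is a gene read by its brightest probe, each coloured point the log2 ratio of atretic over plateau in 1 of the 4 pairs, and the black tick the mean of the 4 pairs. The left panel holds 36 carriers and the right panel 23 channel and import genes. Most rows cross 0, and the widest, SLC25A28, runs from -1.17 in pair 1 to 1.44 in pair 3.

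The voltage-dependent anion channels VDAC1 and VDAC2, the main pores of the outer membrane, were among the 4 brightest genes, with mean log2 intensities of 13.5 and 13.3. VDAC1 was measured at 14.02, 12.48, 13.43 and 13.92 in the atretic follicles of pairs 1 to 4, against 14.45, 12.85, 13.58 and 13.31 in their plateau partners. The groups overlapped between 12.85 and 14.02, and the atretic follicle was the higher only in pair 4. The log2 ratio was -0.08 ± 0.48 (SD over the pairs), and it was above 0 on slide 205 alone (0.04) and without pair 1 (0.03). VDAC2 had 13.37, 12.91, 13.28 and 13.79 in the atretic follicles and 13.34, 12.89, 13.67 and 13.01 in the plateau follicles. Again the follicles of pair 4 differed most, by 0.77, and the mean log2 ratio was 0.11 ± 0.48, or -0.11 without pair 4.

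The third channel gave a different picture. The array lists its probe under the symbol VDAC1P5, which current RefSeq records for cattle hold as a synonym of VDAC3. The name thus rests on that record, and whether the probe also binds other members of the family could not be checked without its sequence. The probe had log2 intensities of 11.16, 12.51, 11.18 and 11.58 in the atretic follicles, against 10.39, 11.53, 9.89 and 10.56 in the plateau follicles. Within each pair the atretic follicle was the higher, although the levels of the groups overlapped because both follicles of pair 2 were bright. The log2 ratio was 0.77, 0.98, 1.29 and 1.02 in pairs 1 to 4 and above 0 on 8 of 8 arrays. Its mean of 1.01 ± 0.21 is a 2.02-fold higher level (adjusted p = 0.17 in limma). This SD was low for a gene of the array, at the 23.7th percentile. The gene passed the threshold under all 15 alternatives tried, with ratios of 0.92 to 1.10, and 0.92 was the value without pair 3. With only 1 probe, its value could not change in the alternative that averaged the probes of a gene. VDAC3 was chosen for description knowing that it had moved, so its rise is no independent result. Among all genes tested, the 5 whose 8 array ratios correlated best with those of the VDAC3 probe were FGFRL1, LOC781576, CRYGD, CASKIN1 and CYP2C87. Their r was 0.93 to 0.96, which is a description only, since they were selected as the highest and the 8 arrays hold only 4 pairs of RNA. CRYGD, CASKIN1 and CYP2C87 lay near the intensity limit, at 7.13 to 7.33. Of these 5, LOC781576 averaged 0.65 ± 0.58 and passed the threshold, whereas the other 4 averaged -0.05 to 0.12.

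**Figure D2:**
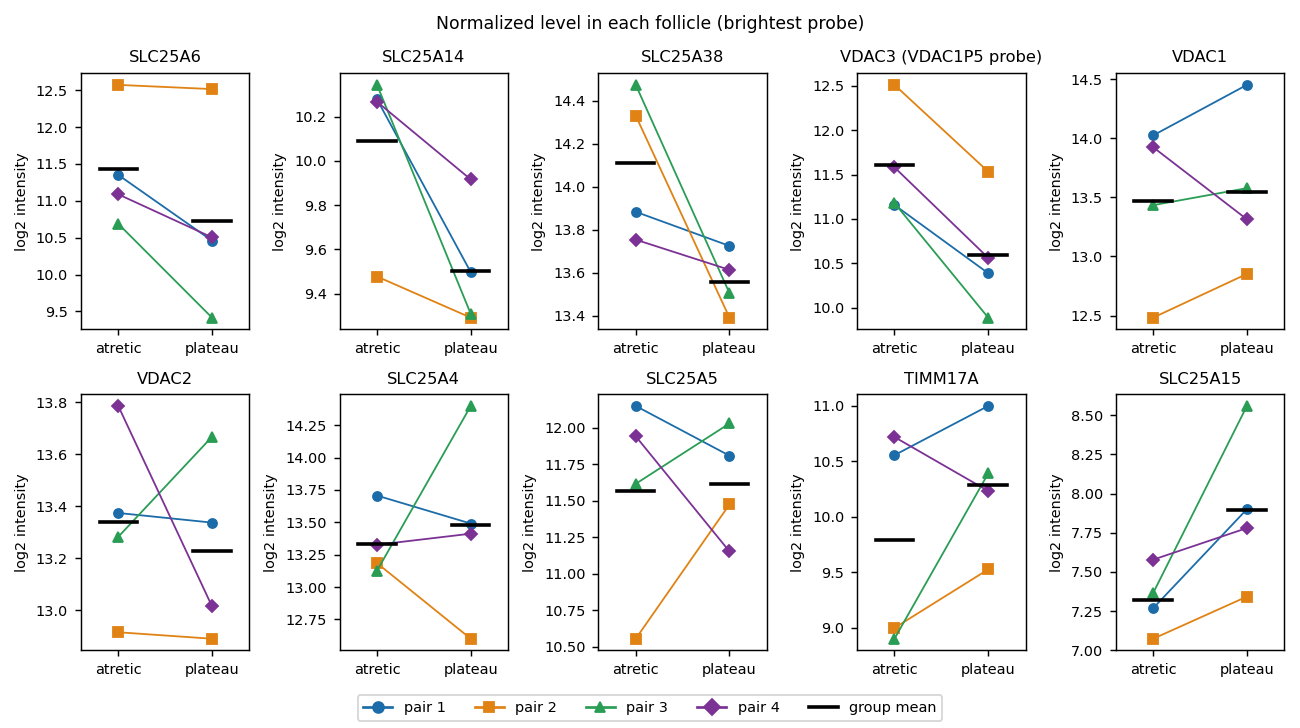
Normalised log2 intensity of 10 genes in each follicle, with the 4 atretic follicles left and the 4 plateau follicles right, lines joining the follicles of a pair and black bars at the group means. The axes differ between panels. All 4 lines fall towards the plateau side for SLC25A6, SLC25A14, SLC25A38 and the VDAC3 probe, and all 4 rise for SLC25A15.

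The ADP/ATP carriers exchange ATP made in the matrix for cytosolic ADP. SLC25A6 was one of the 2 genes to pass the threshold. It was measured at 11.35, 12.57, 10.69 and 11.09 in the atretic follicles, against 10.46, 12.52, 9.42 and 10.50 in the plateau follicles. The 2 follicles of pair 2 were both bright and differed by only 0.06, while those of pair 3 differed by 1.27. The mean log2 ratio was 0.70 ± 0.51, a 1.63-fold higher level (adjusted p = 0.55 in limma), with 7 of 8 arrays above 0. Without pair 1, 3 or 4 the unadjusted p-value rose above 0.05 and the call was lost, the ratio then being 0.64, 0.51 and 0.74. The single probe was the only reading of this gene.

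The other ADP/ATP carriers did not pass. SLC25A4, the isoform of heart and muscle, was the third brightest of the 59 genes, at 13.71, 13.18, 13.13 and 13.33 in the atretic follicles and 13.49, 12.60, 14.40 and 13.41 in the plateau follicles. Its log2 ratio of -0.14 ± 0.80 came with -1.27 in pair 3 and 0.58 in pair 2, and it was 0.24 without pair 3. SLC25A5, the isoform of dividing cells, averaged -0.05 ± 0.76, and its values by pair were 0.34, -0.92, -0.41 and 0.79. A second probe of SLC25A5 gave 0.14, -0.88, -0.26 and 0.71, so both probes gave the same order of pairs. SLC25A31, the isoform known from the testis, was dim at 7.36 and averaged -0.21 ± 0.27. The mean was thus above 0 for SLC25A6 only, but for SLC25A4, SLC25A5 and SLC25A31 the SD was larger than the distance of the mean from 0.

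The remaining carriers of nucleotides, cofactors and phosphate did not pass, and the whole group of 13 tested genes had 5 ratios above 0 and 8 below, with a median of -0.09. SLC25A3 brings in the phosphate used by the ATP synthase. Its log2 intensity was 11.21, 9.96, 10.31 and 10.89 in the atretic follicles against 11.36, 10.40, 11.44 and 10.70 in the plateau follicles. The ratio of -0.38 ± 0.56 was the lowest of the group and was below 0 in pairs 1 to 3. Without pair 3 it was -0.13. SLC25A17, which in other mammals carries cofactors into peroxisomes, had the third largest SD of all 59 genes. Its ratios were 0.76, -0.91, -1.37 and 0.07 by pair, with a mean of -0.36 ± 0.96. The mean was -0.74 without pair 1 and -0.03 without pair 3. SLC25A42, a coenzyme A carrier close to the intensity limit, had one of the smallest SD (0.16 ± 0.11). On slide 205 its 4 ratios were -0.61 to -0.15 and on slide 206 they were 0.39 to 0.78, so its sign differed between the dye orientations.

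The carriers of carboxylates, amino acids, acylcarnitine, S-adenosylmethionine and glutathione held the genes closest to the threshold, although 0 of 15 passed it. Their median was 0.10, with 10 ratios above 0 and 5 below. SLC25A38 imports glycine, the first substrate of haem synthesis, and had the highest intensity of the 59 genes. It stood at 13.88, 14.33, 14.47 and 13.75 in the atretic follicles, against 13.73, 13.39, 13.51 and 13.61 in the plateau follicles. The lowest atretic follicle, 13.75, lay just above the highest plateau follicle, 13.73. The ratio of 0.55 ± 0.46 was a fold of 1.47, short of 1.5, with an unadjusted p-value under 0.05. Of its 2 other probes, one averaged 0.23 and the other 0.08, and over all 3 probes the ratio was 0.29. Without pair 3 the brightest probe averaged 0.41, and without pair 1 or 4 it passed, at 0.68 and 0.69, as it did on slide 206 alone, at 0.75.

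SLC25A29, a carrier of basic amino acids, had 7.37, 9.86, 9.42 and 8.44 in the atretic follicles against 7.50, 8.83, 8.70 and 7.78 in the plateau follicles. Its ratio was -0.13 in pair 1 and 0.66 to 1.02 in the others. The mean of 0.57 ± 0.49, a fold of 1.48, missed the fold only, and without pair 1 it passed at 0.80 and on slide 206 alone at 0.69. SLC25A15 exchanges ornithine for citrulline in the urea cycle. It lay in the opposite direction, with 7.27, 7.07, 7.37 and 7.58 in the atretic follicles against 7.90, 7.34, 8.56 and 7.78 in the plateau follicles. The ratio was below 0 in all 4 pairs and averaged -0.57 ± 0.45, a fold of 1.49. It passed without pair 2 or 4, at -0.68 and -0.70, and on slide 206 alone, at -0.79, and was -0.37 without pair 3. The gene was dim, and its second probe, dimmer still at 7.15, averaged 0.02. SLC25A40, a glutathione carrier, was higher in the atretic follicle of every pair, by 0.19 to 0.71, and averaged 0.44 ± 0.23, short of the fold. SLC25A26, the S-adenosylmethionine carrier, was read by 7 probes. The brightest averaged 0.50 ± 0.57, and 0.69 without pair 1, where it passed. Another 5 averaged 0.21 to 0.38, and the dimmest -0.09. The ornithine carrier SLC25A2, at the lower end of the intensities, had the smallest SD of all (0.07 ± 0.10). This small SD covers differences between dye orientations, as in pair 4, with -0.31 on slide 205 and 0.50 on slide 206.

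SLC25A14, a relative of the uncoupling proteins first described in brain, was the other gene to pass. It had log2 intensities of 10.28, 9.48, 10.34 and 10.27 in the atretic follicles, against 9.50, 9.29, 9.31 and 9.92 in the plateau follicles. The atretic follicle of pair 2 lay below the plateau follicles of pairs 1 and 4, so that the groups overlapped there. The other atretic follicles lay above all plateau follicles. The ratio of 0.59 ± 0.39 was a fold of 1.503, at the limit itself (adjusted p = 0.54 in limma), and 7 of 8 arrays were above 0. The call was lost in 7 of 15 alternatives. With only 1 probe, its value could not change in the alternative that averaged the probes of a gene. The ratio was 0.44 without pair 3, 0.52 without pair 1 and 0.34 on slide 206 alone, against 0.83 on slide 205 alone.

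The mitoferrins SLC25A28 and SLC25A37 bring iron into the matrix. SLC25A28 was the most variable of the 59 genes. It had 8.82, 8.92, 9.83 and 9.29 in the atretic follicles and 9.99, 8.55, 8.40 and 9.83 in the plateau follicles. Its ratio was -1.17 in pair 1 and 1.44 in pair 3, in the same direction on both slides, and averaged 0.03 ± 1.13. The average was 0.43 without pair 1 and -0.44 without pair 3. SLC25A37 was steadier at -0.26 ± 0.24, below 0 in 3 of 4 pairs, but its dimmest probe averaged 0.33. Among the carriers whose substrate is not settled, SLC25A35 (0.24 ± 0.28), SLC25A45 (0.03 ± 0.18) and SLC25A34 (-0.03 ± 0.20) were dim, at 7.60 to 7.78, and none of these 3 passed. SLC25A34, like SLC25A42, had opposite signs on the slides, 0.48 on slide 205 alone and -0.53 on slide 206 alone, so its small SD covers a difference between dye orientations. The sign of SLC25A45 differed as well, with 0.14 on slide 205 alone and -0.08 on slide 206 alone.

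The 10 TOM genes held 0 calls, 5 ratios above 0, 5 below and a median of -0.05. They were bright, with a median log2 intensity of 11.5, against 8.25 over all genes. TOMM70, the receptor that takes carrier proteins from cytosolic chaperones, had the highest ratio. It was measured at 12.83, 11.94, 12.22 and 12.45 in the atretic follicles, against a narrow range of 11.92 to 12.07 in the plateau follicles. The atretic follicle of pair 2 fell within that range, and the ratio was 0.38 ± 0.33. TOMM22, the central receptor, was above 0 in all 4 pairs (0.33 ± 0.31), and TOMM20, the presequence receptor, was below 0 in all 4 (-0.23 ± 0.19). TOMM40 forms the pore of the complex. It was dim at 7.38 and ranged from -0.30 to -0.02 by pair, with a mean of -0.16 ± 0.11. This small SD covers differences between dye orientations, as in pair 1, with -0.43 on slide 205 and 0.39 on slide 206. TOMM34 is a cytosolic co-chaperone of import and had the lowest ratio of the 59 genes. It had 10.14, 9.90, 9.89 and 9.40 in the atretic follicles against 10.98, 9.69, 10.02 and 10.97 in the plateau follicles. The plateau follicles of pairs 1 and 4 were the highest of the 8 follicles, and the ratio was -0.58 ± 0.79, short of the fold and of the p-value. On slide 205 alone it passed, at -0.75.

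Of the inner membrane translocases, 6 were tested, 0 passed, and the median was -0.03. TIMM17A and TIMM17B are alternative subunits of the TIM23 complex, of which TIMM23 forms the channel. TIMM17A had 10.55, 9.00, 8.90 and 10.72 in the atretic follicles and 11.00, 9.53, 10.39 and 10.23 in the plateau follicles. The ratio was below 0 in pairs 1 to 3, was -1.49 in pair 3, and averaged -0.49 ± 0.81. The gene had 5 tested probes, which averaged -0.56 to -0.25, and all 5 were lowest in pair 3. Without pair 4 the brightest probe averaged -0.82 and passed the threshold, and without pair 3 it averaged -0.16. TIMM17B averaged 0.28 ± 0.52, with 0.86 in pair 4 and -0.34 in pair 1. TIMM23 averaged 0.04 ± 0.83 and, like TIMM17A, was lowest in pair 3 (-1.13), without which it averaged 0.43. TIMM22, the pore through which carriers are inserted, had 8.75, 9.27, 8.03 and 8.12 in the atretic follicles and 9.13, 7.78, 8.35 and 8.21 in the plateau follicles. Only pair 2 was above 0, at 1.49, and the mean was 0.17 ± 0.89.

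The 5 small TIM chaperones, which shield hydrophobic proteins in the intermembrane space, had 0 calls and a median of -0.13. The medians of pairs 1 to 4 were 0.51, -0.37, -0.64 and -0.01, against -0.09 to 0.07 for the 59 genes. The highest of these was in pair 1, whose atretic follicle had the highest mean of the theca markers, though not every marker set it apart. The lowest was in pair 3, whose plateau follicle was high in stromal markers. The part of either in these medians was not tested. TIMM8A, which pairs with TIMM13, varied most, with 10.48, 8.33, 8.86 and 9.73 in the atretic follicles and 9.27, 9.37, 10.05 and 9.87 in the plateau follicles. Its ratio was 1.21 in pair 1 and -1.18 in pair 3, with a mean of -0.29 ± 1.10. Without pair 1 it averaged -0.79 and passed, and without pair 3 it averaged 0.01. TIMM9 and TIMM10 form a joint complex. TIMM9 averaged 0.13 ± 0.40 and TIMM10 averaged -0.41 ± 0.52. The other genes placed by their current name did not pass. TIMM10B, a further small TIM, averaged -0.21 ± 0.41, TIMM21, a subunit of TIM23, 0.01 ± 0.40, and SLC25A51, the carrier of NAD, -0.003 ± 0.39. The sign of TIMM21 differed between the dye orientations, with 0.33 on slide 205 alone and -0.31 on slide 206 alone.

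**Figure D3:**
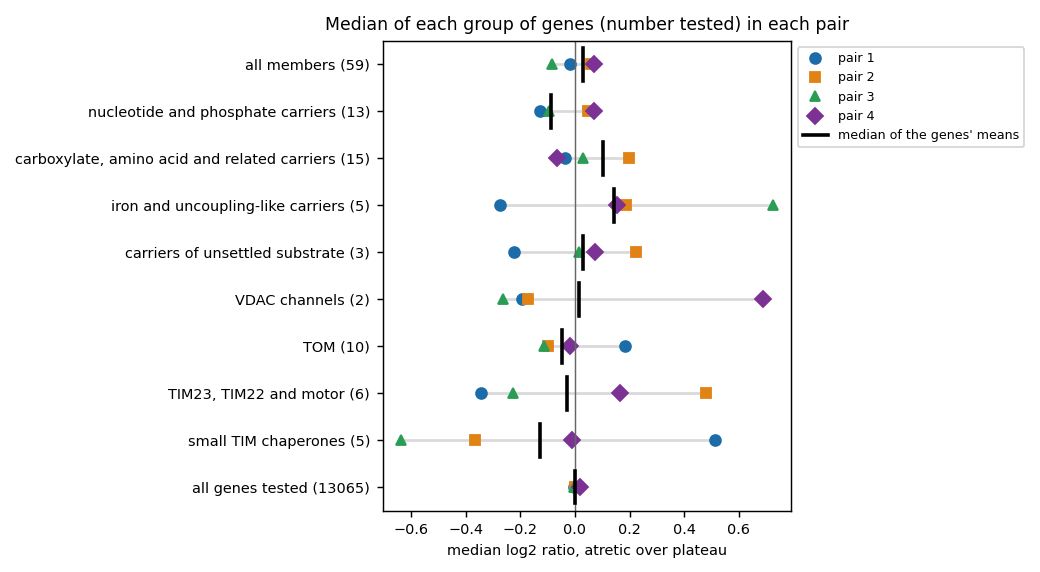
Median log2 ratio of atretic over plateau in each pair (coloured points) for the 59 genes, for 8 groups by role and for all genes tested, with the number of genes in parentheses and a black tick at the median of the genes' means. Over all genes the pair medians lie between -0.00 and 0.02. The small TIM chaperones spread from -0.64 in pair 3 to 0.51 in pair 1.

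The 4 pairs gave different pictures of these genes. In pair 3, 5 of the 59 genes lay above a log2 ratio of 1 and 10 below -1, together 25.4% of them, against 18.6% of all genes, although the SD across genes was 0.71 for the 59 genes and 0.96 for all genes. In pairs 1, 2 and 4 the share beyond 1 in either direction was 3.39%, 5.08% and 1.69%, against 6.33%, 8.09% and 7.05% of all genes. The largest ratios of pair 3 were 1.44 for SLC25A28 and -1.49 for TIMM17A. In pair 4 they were 0.86 for TIMM17B and -1.56 for TOMM34. Across the 59 genes, which are not independent replicates, the ratios of 2 pairs correlated at r = -0.22 to 0.35. Across all genes the same correlations were 0.04 to 0.25. The median SD over the pairs was 0.47 for the 59 genes and 0.39 for all genes. The 59 genes were also brighter, 44.1% of them at a log2 intensity of 10 or more against 27.9% of all genes. Within that class the median SD was 0.52 for 26 of the 59 genes and 0.56 for all genes. Between 8 and 10 it was 0.47 and 0.53, and under 8 it was 0.27 and 0.24.

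**Figure D4:**
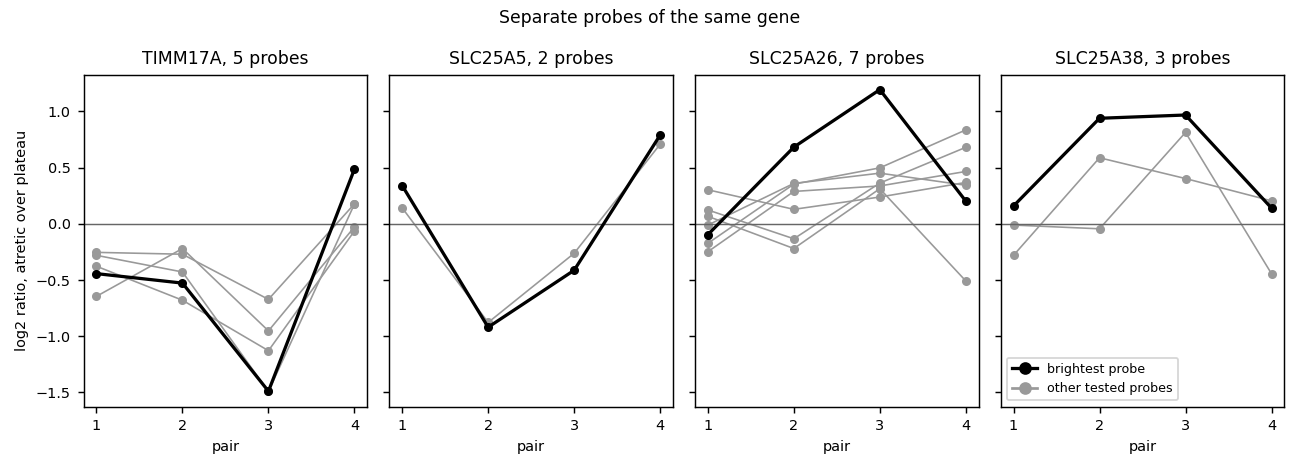
Log2 ratio of atretic over plateau in pairs 1 to 4 for every tested probe of 4 genes, with the brightest probe in black and the others in grey. All 5 probes of TIMM17A are lowest in pair 3, and the 2 of SLC25A5 rank the pairs alike. The probes of SLC25A26 lie farthest apart in pair 4 and those of SLC25A38 in pair 2.

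Genes that work with this machinery but lie outside the chosen symbols were counted in the same way. At the same threshold 2.79% of all genes were upregulated and 2.88% downregulated. Of 26 tested import partners, such as processing peptidases, chaperones and the outer membrane assembly factors, 1 was upregulated and 1 downregulated. SAMM50 inserts barrel proteins such as VDAC and TOMM40 into the outer membrane. It had ratios of 0.44, 1.17, 0.70 and 0.17 and averaged 0.62 ± 0.42 (adjusted p = 0.55 in limma). GFER, the oxidase that recharges the intermembrane space import pathway, was below 0 on all 8 arrays and averaged -0.60 ± 0.22 (adjusted p = 0.33). The chaperonin HSPD1 averaged -0.55 ± 0.65 and did not pass. Of 25 other inner membrane transporters, 0 were upregulated and 2 were downregulated. The transporters ABCB8 and ABCB10 belong to the ATP-binding cassette family. ABCB8 averaged -0.81 ± 0.52, with all 8 arrays below 0 (adjusted p = 0.49), and ABCB10 averaged -0.59 ± 0.54 (adjusted p = 0.65). Of the alternatives tried, SAMM50 passed under 10 of 15, GFER under 12 of 15 and ABCB10 under 8 of 14. The call for SAMM50 was lost without pair 2 or pair 3 (0.44 and 0.59), on slide 205 alone (0.46), without quantiles (0.57) and with an intensity trend and robust variance (0.62). That for GFER was lost without pair 2 or pair 4 (-0.53 and -0.56) and on slide 205 alone (-0.43), where it fell short of the fold. That for ABCB10 was lost without pair 1, 2 or 4 (-0.65, -0.63 and -0.33), on slide 206 alone (-0.44), and with plain background subtraction or the deposited table (-0.51 in both). ABCB8 passed under all 15 alternatives. Among the alternatives, the average over the probes of a gene was taken only for the genes of the chosen symbols. For SAMM50, GFER, ABCB8 and ABCB10 it therefore repeated the main value, and any other probes of these genes were not examined.

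None of the 17 genes of cristae, fusion and fission, of the 12 regulators of mitochondrial biogenesis or of the 11 outer membrane partners of VDAC passed the threshold. At an unadjusted p-value of 0.05 in limma, whatever the fold, 1, 0 and 0 of them were higher and 0, 1 and 1 lower in atretic follicles, where 5.26% and 4.31% of all genes were. Their median log2 ratios were -0.09, -0.10 and -0.03. Among those partners, the apoptosis gene BAX averaged 0.10 ± 0.17 and HK2, the hexokinase that docks on VDAC, -0.31 ± 0.71. The fission factor FIS1 came nearest to a call, at 0.56 ± 0.44, short of the fold. For comparison, of 81 tested genes of the respiratory chain and ATP synthase 6 were upregulated and 0 downregulated, with a median of 0.06. Of 77 mitochondrial ribosomal protein genes 2 were upregulated and 0 downregulated, with a median of 0.02. Over all genes tested, the shares were 2.79% upregulated and 2.88% downregulated. The difference between these gene groups and the carriers and import genes was not tested.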

How the data were processed

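The 8 arrays were scanned by the authors with automatic gain. The authors deposited a median intensity per spot and dye, its local background, and a mark on spots under debris. Their deposited log2 table gives Cy5 over Cy3 after background subtraction, loess and quantiles in FlexArray. It served as an alternative. Its columns had medians of -0.029 to -0.0054 and correlated at 0.9995 to 0.99999 with Cy5 over Cy3 recomputed in this way, which sets their direction.

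Intensities were corrected by normexp (offset 50), loess (span 0.3) and quantiles in limma. From 7 to 35 marked spots per array were left out. Ratios were turned to atretic over plateau. Arrays are numbered by Area, and no label states that an equal number means the same follicles. Deviations from the slide mean correlated at 0.76 to 0.87 for the 4 equal numbers, and equal numbers were averaged into 4 pairs. The 12 unequal ones gave -0.49 to -0.03. Subtracting the slide mean by itself pulls these below 0 once the equal ones are high, so their sign adds no support. Slide and dye orientation cannot be told apart. Of 43794 gene probes, 34016 had a mean log2 intensity of 7 or more and were fitted with lmFit and eBayes, with Benjamini-Hochberg adjustment. Symbols came from the platform's annotation, 21790 probes having one and 22004 none, and were updated for 1524 probes with RefSeq names of assembly ARS-UCD2.0.

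The genes, the lists and the rule for naming were chosen with earlier results of these data known. The rule named genes past the threshold, the VDACs, the highest and lowest of each role, the 4 brightest, the 4 most and least variable, genes next to the intensity limit, genes whose probes differed by over 0.8 (there were 0), and the nearest profiles to VDAC3. SLC25A5, SLC25A26, SLC25A31, SLC25A40, TIMM10B, TIMM21, TIMM23, TOMM20, TOMM22, SLC25A51, HSPD1, BAX, HK2 and FIS1 were added after their values were seen. The fit was tested on simulated data. The fits ran in limma 3.58.1 with statmod 1.5.0 under R 4.3.3, and the figures in matplotlib 3.10.9 under Python 3.11.15.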

Additional observations from a re-analysis of the deposited data

Results flagged for a closer look

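In 2 of 73 genes examined, 1 pair lay far from the other 3 by the gap between neighbouring values, where chance alone marks about 1 in 20 sets of 4. TIMM22, the pore of the carrier translocase, had a log2 ratio of 1.49 in pair 2, against -0.39 to -0.10 in the other pairs, and both arrays of that pair were above 1.4. SLC25A41, a dim ATP-Mg/phosphate carrier-like gene with a mean log2 intensity of 7.48, had -0.84 in pair 1 against 0.10 to 0.26 in the other pairs. Those other pairs had ratios of 0.59 to 0.85 on slide 205 and -0.51 to -0.34 on slide 206. Their narrow range thus averages opposite signs in the 2 dye orientations.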

How the results depend on the processing

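The precision is limited by 4 pairs and by probes near the negative controls. Of 59 genes, 2 were upregulated and 0 downregulated, and the upregulated count was 1 with plain background subtraction, without quantiles, with an intensity trend and robust variance and with the deposited table. On slide 205 alone 2 were upregulated and 2 downregulated, and on slide 206 alone 5 and 2. Leaving out each pair gave 0 to 3 upregulated and 0 to 2 downregulated, the 0 upregulated coming without pair 3. With the 4 genes placed by current symbol, chosen after seeing the data, 3 were upregulated, the third being VDAC3. The median log2 ratio stayed between -0.02, without quantiles, and 0.06, with an intensity of 8 or more. Over all probes, 1381 passed the study's threshold, 2694 on slide 205 alone and 2649 on slide 206 alone, and 1280 to 1802 without a pair. When all arrays entered with pairs as the replicate block, 2199 probes passed that threshold and 556 an adjusted p of 0.05, and with a dye term added 2181 and 447. Among the 59 genes both of these fits gave 2 upregulated and 0 downregulated. Both fits counted the arrays of a pair partly as separate samples. For single genes, 640 of 691 values under the alternatives kept a call, or stayed without one and moved by less than 1 SD. A call was lost in 30 and gained in 14, and 7 without a call moved by more. Changing the intensity filter, the variance setting or the replicate block left the ratio itself unchanged, so a gene without a call could not move there. None of the 691 values changed sign where a call had been made.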
